A study of Mus musculus with 18 samples.

Results

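The 41 genes described here are a listed set of fatty acid oxidation enzymes, peroxisome proliferator-activated receptors (PPARs) and genes that PPARs are known to control. They were chosen by gene symbol, and all 41 were found among the 54354 rows of the table. They were measured by bulk RNA sequencing in 10 mouse libraries, 5 labelled serine-free control diet (SF_CD) and 5 labelled serine-free high fat diet (SF_HFD). All 10 carry the labels colon, tumor as cell type and wild type as genotype, and both groups shared the serine-free diet, so no group with dietary serine enters the comparison. The extraction protocol names organoids, whereas the design text describes living cells sorted from normal colon and colon tumours for single-cell sequencing. The labels give no age, sex, tumour model or diet composition, and whether each library is its own animal or culture is not stated. The p-values therefore reflect library-to-library spread, part of which may be technical. The 8 other libraries of the series (control and high fat diet with serine) were not used, because the gene names of the rows go against their counts, with Actb, Gapdh and Epcam at 0 in all 8.

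Fatty acids enter a cell through carriers, are bound by small carrier proteins and are activated to acyl-CoA. The carnitine shuttle brings long-chain acyl-CoA into mitochondria, where repeated beta-oxidation steps release acetyl-CoA and pass electrons through the electron transfer flavoprotein to the respiratory chain, while peroxisomes shorten very long or unusual chains. PPARs are nuclear receptors that bind fatty acids, pair with retinoid X receptors and switch on many of these genes, and in the intestine they are known as sensors of dietary fat.

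Library totals ran from 499774 to 12841275 counts, and 3 libraries (SF_CD 1, SF_CD 5 and SF_HFD 5) held fewer than 1000000. In these 3, a count of 3 corresponds to 4.12 to 6.003 CPM (counts scaled to library size) before TMM scaling, against 0.234 to 0.822 CPM in the other 7. SF_CD 1 and SF_CD 5 also had 22.0% and 14.5% of their counts in ribosomal RNA, against 2.08% to 7.19% in the other 8. This share includes mitochondrial ribosomal RNA. Malat1 held 12.1% of the counts in SF_CD 1, against 0.409% to 1.66% in the remaining libraries. Actb and Gapdh had 8753 and 781 counts in SF_CD 1 and 9059 and 1000 in SF_CD 5. In SF_CD 4 they had 40817 and 38505, and in the shallow SF_HFD 5 1830 and 3288. The RNA makeup of SF_CD 1 and SF_CD 5 thus differed as well as their depth, and results are also given for the 7 deeper libraries. Epithelial markers were high in all 10 (summed level of 7 genes 2074 to 4809 CPM in SF_CD and 4364 to 6801 CPM in SF_HFD), while no marker was listed to check the label tumor. Of these 7, 6 had higher fitted levels in SF_HFD, 3 had an unadjusted p under 0.05 and 0 were called by edgeR. Krt8 was at 313 to 548 CPM in SF_CD and 656 to 1273 CPM in SF_HFD, and DESeq2 called it (adjusted p = 0.0262). Markers of other cells differed between the groups: the sum of 7 smooth muscle genes was 2.94 to 24.4 CPM in SF_CD and 168 to 258 CPM in SF_HFD, that of 7 fibroblast genes 12.0 to 93.5 CPM and 68.5 to 136 CPM, and that of 8 macrophage genes 34.0 to 115 CPM and 7.60 to 41.7 CPM. Of 7 goblet cell genes 6 were tested, 5 with negative log2 fold changes and 1, Agr2, with a positive one. Zg16 (309 counts over SF_CD, 1 over SF_HFD) and Muc2 (94 and 1) were called lower in SF_HFD. The sum of the 7 was 59.1 to 264 CPM in SF_CD and 65.7 to 333 CPM in SF_HFD. Most of this sum was Agr2, with 230 of the 264 CPM in SF_CD 2 and 315 of the 333 CPM in SF_HFD 1. In all results below, fewer cells of a type and less RNA per cell cannot be told apart in bulk libraries. The part of epithelial cells and of these other cells was not tested unless a value is given.

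The comparison of SF_HFD with SF_CD asks how the high fat diet changed expression when serine was left out of the diet. No member of the fatty acid oxidation and PPAR list passed the test. Of the 41 members, 33 had enough counts to be tested, and edgeR's quasi-likelihood test called 0 of them after Benjamini-Hochberg adjustment (threshold 0.05), against 38 of 11780 genes (0.323%). At an unadjusted p under 0.05 there were 5 members, 15.2% of those tested, where 11.6% of all tested genes were found. DESeq2, the second tool run, also called 0 members, and called 2.84% of the 13437 genes to which it gave an adjusted p. It put 8 of the 41 members at an unadjusted p under 0.05, beside 2254 of the 24263 genes to which it gave a p. Cd36, Fabp1 and Acot1, too low in counts for the main test, were among these 8. The 33 log2 fold changes were divided evenly, 17 positive and 16 negative, with a median of 0.01, beside a median of 0.02 over all tested genes. Member by member, the values of SF_HFD and SF_CD were separate for 1 of the 33, Decr2, beside 3.65% of all tested genes.

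**Figure D1:**
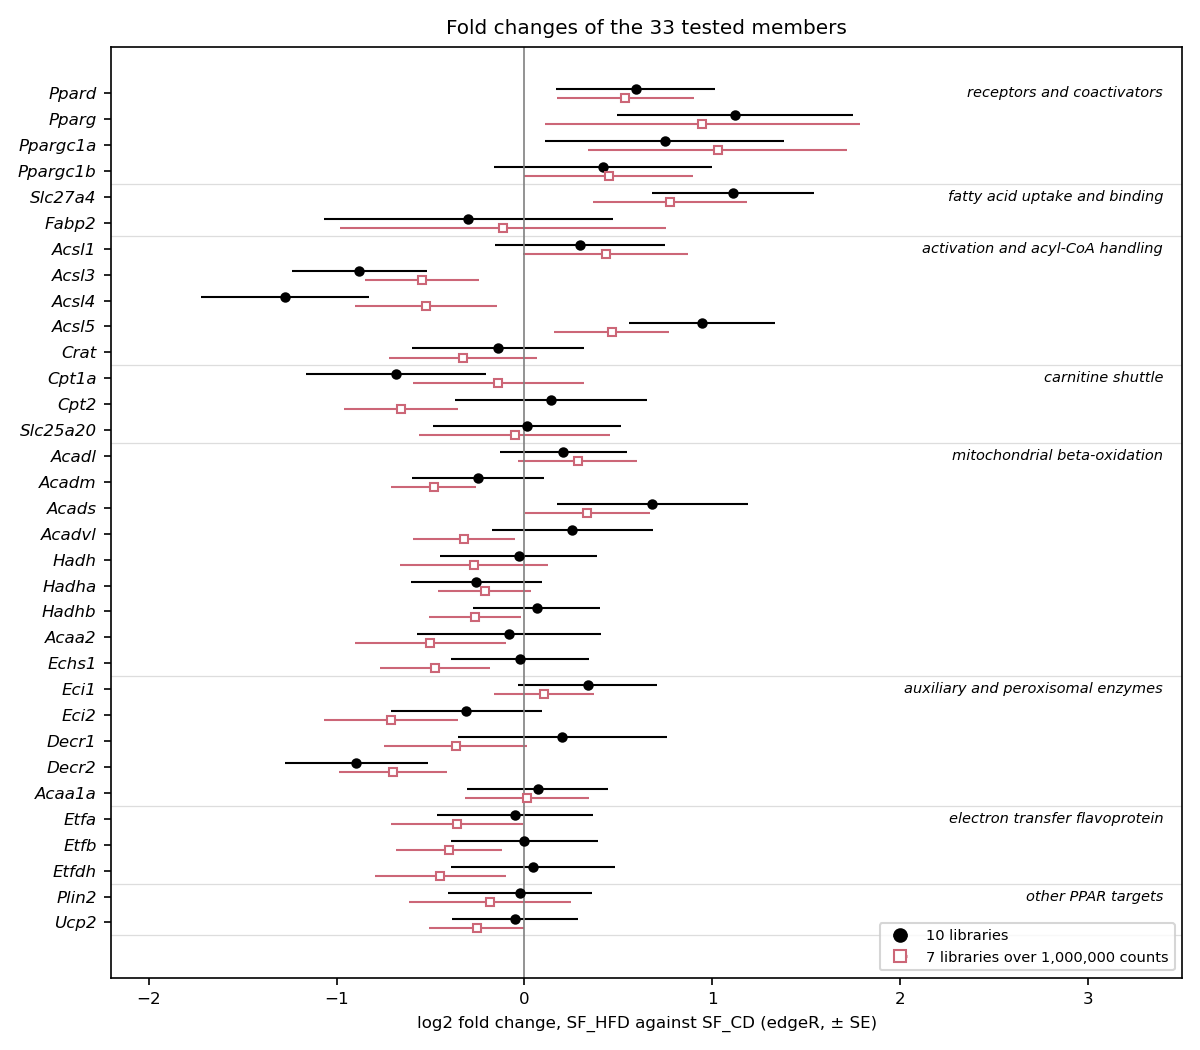
Log2 fold change of SF_HFD against SF_CD for the 33 tested members by role, from edgeR, with bars of 1 SE worked back from the F statistic. Black circles use all 10 libraries and open squares the 7 with over 1000000 counts. Most black circles of the mitochondrial enzymes sit close to 0, and most of their squares lie to the left.

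All 4 tested receptors and coactivators had positive log2 fold changes, and none passed the test. Pparg, the receptor known for adipocyte formation and for its high level in colon epithelium, lies at chr6:115360951-115490399 on the plus strand (mm10). It was at 13.5, 38.0, 19.9, 2.28 and 3.89 CPM in SF_CD libraries 1 to 5 and at 79.6, 24.7, 22.9, 27.4 and 22.7 CPM in SF_HFD libraries 1 to 5. SF_HFD 1 stood far above the other SF_HFD libraries, while SF_CD 4 and 5 were the lowest of the 10, and the groups overlapped. The means were 35.5 ± 24.8 CPM in SF_HFD against 15.5 ± 14.5 CPM in SF_CD (SD, n = 5 each), and the log2 fold change was 1.12 ± 0.63 (SE; edgeR adjusted p = 0.511, unadjusted p = 0.0922). That value was 0.58 without SF_HFD 1, where the SF_HFD mean fell to 24.4 CPM, and 1.83 without SF_CD 2, the only omission of a single library that gave an unadjusted p under 0.05. Markers of absorptive colonocytes, a cell type known for high Pparg, varied among the same libraries: the summed level of 8 such genes was 99.2, 904, 2043, 97.8 and 249 CPM in SF_CD libraries 1 to 5 and 3995, 97.0, 1606, 218 and 423 CPM in SF_HFD libraries 1 to 5. Most of this sum was Car1, with 3869 of the 3995 CPM in SF_HFD 1 and 2016 of the 2043 CPM in SF_CD 3. The other 7 genes did not follow it as a group: Guca2a averaged 12.1 CPM in SF_CD and 1.62 CPM in SF_HFD (log2 fold change -2.57, edgeR adjusted p = 0.228), Krt20 and Cdhr5 had log2 fold changes of 1.58 and 1.52 (neither called), and Car4 had 23 and 2 counts. Aqp8 had 13 and 28 counts, and Slc26a3 and Slc37a2 were near 0. For the sum, SF_HFD 1 was highest and SF_CD 4 among the lowest, as for Pparg. Other libraries did not match: SF_HFD 2 was low on the sum only. SF_CD 3 was high on the sum, at 2043 CPM, but its Pparg value of 19.9 CPM lay below every SF_HFD library. The part of these cells in the Pparg values was not tested.

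Ppard, the widely expressed receptor of the family, was much lower in counts. It was at 9.02, 8.37, 7.43, 3.87 and 3.89 CPM in SF_CD libraries 1 to 5 and at 8.51, 9.45, 8.51, 11.5 and 11.4 CPM in SF_HFD libraries 1 to 5. The SF_HFD libraries lay close together and the SF_CD libraries reached below them. The fitted log2 difference was 0.59 ± 0.42 (SE; edgeR adjusted p = 0.621, unadjusted p = 0.180). Ppargc1a and Ppargc1b, coactivators that drive mitochondrial gene expression, had log2 fold changes of 0.75 ± 0.64 (SE) and 0.42 ± 0.58 (SE), with ranges that overlapped widely (1.54 to 13.5 CPM in SF_CD and 3.79 to 13.8 CPM in SF_HFD for Ppargc1a). Leaving out 1 library moved the log2 fold change of Ppargc1a between 0.43 (without SF_CD 4; 0.44 without SF_CD 3) and 1.58 (without SF_CD 2, unadjusted p = 0.0437). Ppara, the receptor that dominates in liver, was close to undetected, with 1 count in the 5 SF_CD libraries and 8 counts in the 5 SF_HFD libraries. Its single SF_CD count lay in SF_CD 1, where it amounts to 2.25 CPM.

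Among uptake and binding genes, Slc27a4 had a higher mean in SF_HFD, past the threshold only before adjustment. Slc27a4 encodes FATP4, a fatty acid transport protein of the intestine, and lies at chr2:29802634-29817522 on the plus strand. It was at 6.76, 6.50, 17.4, 9.79 and 5.84 CPM in SF_CD libraries 1 to 5 and at 11.7, 15.4, 23.8, 25.4 and 31.6 CPM in SF_HFD libraries 1 to 5. The 5 SF_CD libraries reached 17.4 CPM at most and 3 of 5 SF_HFD libraries lay above that, so the groups overlapped only through SF_CD 3 and SF_HFD 1 and 2. The means were 21.6 ± 7.98 CPM in SF_HFD against 9.25 ± 4.79 CPM in SF_CD (SD, n = 5 each), and the log2 fold change was 1.11 ± 0.43 (SE; edgeR adjusted p = 0.329, unadjusted p = 0.0199). In the 7 deeper libraries it was 0.77 ± 0.41 (SE), with an unadjusted p of 0.0887, and without SF_CD 2 that p was 0.0571.

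Fabp2, the intestinal fatty acid binding protein, was at 2.25, 0.661, 7.57, 1.14 and 3.89 CPM in SF_CD libraries 1 to 5 and at 2.90, 1.84, 1.02, 5.36 and 0 CPM in SF_HFD libraries 1 to 5. No order between the groups is visible at these low levels, and the log2 fold change of -0.30 ± 0.77 (SE) turned to 0.84 without SF_CD 3. Fabp1, the liver-type binding protein, summed to 19 counts over SF_CD and 2 over SF_HFD. All 19 came from SF_CD 1 (7 counts) and SF_CD 2 (12 counts), and the other 3 SF_CD libraries were at 0. Both proteins are known from the small intestine, and 4 of 8 small intestinal enterocyte markers (Apoa4, Apoc3, Lct and Alpi) were at 0 in all 10 libraries. Of the other 4, Apoa1 and Sis had 4 and 0 counts over SF_CD and 7 and 4 over SF_HFD, Mttp had 137 counts over SF_CD and 168 over SF_HFD, and Rbp2 172 and 108. Rbp2 was highest in SF_CD 3, at 15.8 CPM, the library in which Fabp2 was highest too, and the part of such cells was not tested.

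Cd36, a fatty acid receptor of macrophages, endothelium, fat and small intestine, was found in SF_CD libraries alone. Its counts were 0, 25, 27, 1 and 0 in SF_CD libraries 1 to 5 and 0 in each SF_HFD library. Set against a floor of 3 counts over the whole group, the pooled level of SF_HFD was at least 23.4-fold lower. This bound covers counting error only and not the spread between libraries, and nearly all of it rests on SF_CD 2 and SF_CD 3. Cd36 was too low for the main test. With no filter on low counts edgeR called it (log2 fold change -6.56, which depends on the prior count, adjusted p = 0.0320), the 1 member called there beside 0.32% of 24377 genes, and DESeq2 gave no adjusted p. Of the 8 macrophage genes listed, 4 had lower levels in SF_HFD: C1qa and C1qb summed to 21 and 31 counts over SF_CD and to 0 over SF_HFD, Fcer1g had 49 and 1, and Lyz2 was at 36.1, 19.0, 21.3, 15.6 and 79.8 CPM in SF_CD libraries 1 to 5 and at 1.99, 0.691, 2.96, 1.21 and 15.2 CPM in SF_HFD libraries 1 to 5. Within SF_CD, Lyz2 and Fcer1g were highest in SF_CD 5 (79.8 and 5.84 CPM), where Cd36 had 0 counts, while C1qb was at 0 there. The remaining macrophage genes did not clearly differ between the groups. Cd68 was at 24.6 CPM on average in SF_CD and 21.4 CPM in SF_HFD (log2 fold change -0.20, unadjusted p = 0.630), and Adgre1, Csf1r and Itgam had 0, 7 and 2 counts over SF_CD and 1, 4 and 1 over SF_HFD. The summed level of 5 endothelial genes was 3.86 to 33.8 CPM in SF_CD and 1.26 to 4.30 CPM in SF_HFD, and 31.6 of the 33.8 CPM were Pecam1 in the shallow SF_CD 1. In the 7 deeper libraries Pecam1 averaged 2.76 CPM in SF_CD and 2.54 CPM in SF_HFD, and Vwf had 86 and 12 counts over all libraries. Of 7 adipocyte genes, Adipoq, Plin1, Lep and Cfd were at 0 in all 10 libraries, while Fabp4 had 115 counts over SF_CD and 208 over SF_HFD, Retn 110 and 125, and Cidec 2 and 31. Fabp4 was at 4.51, 4.63, 9.81, 0.0759 and 0 CPM in SF_CD libraries 1 to 5 and at 7.78, 2.07, 6.38, 3.02 and 5.05 CPM in SF_HFD libraries 1 to 5, so within SF_CD it was high in SF_CD 2 and 3, as Cd36 was, and also in SF_CD 1, and in SF_HFD it was present where Cd36 was at 0. The part of macrophages, endothelium or fat cells in the Cd36 counts was not tested.

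**Figure D2:**
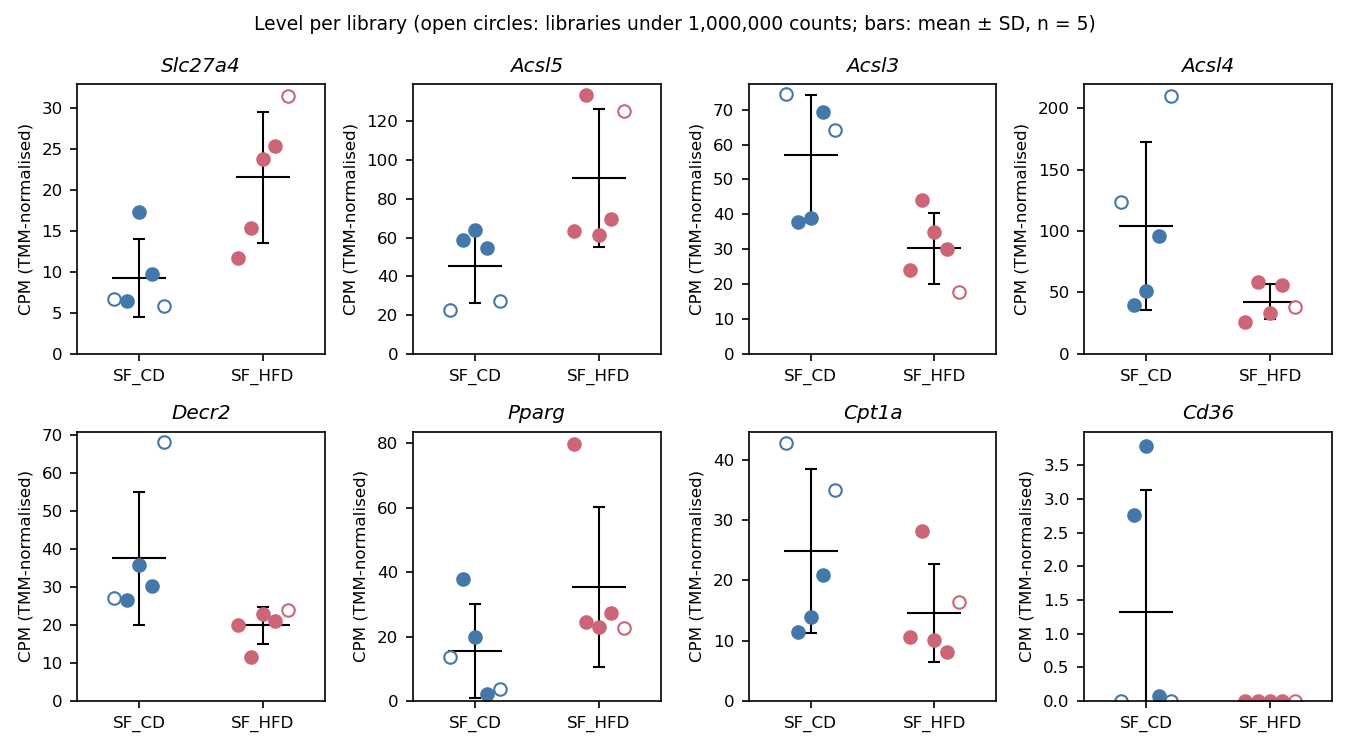
Level of 8 members in each library, in TMM-normalised CPM, with the mean and SD of 5 libraries per group. Open circles are the 3 libraries under 1000000 counts. The Decr2 values of the groups are separate, at 11.5 to 24.0 CPM in SF_HFD and 26.6 to 68.1 CPM in SF_CD.

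The long-chain acyl-CoA synthetases held 3 of the 5 members at an unadjusted p under 0.05, and their signs differed. These enzymes attach coenzyme A to fatty acids. Acsl4, which favours arachidonic acid and other polyunsaturated chains, lies at chrX:142317993-142390535 on the minus strand. It was at 124, 39.9, 51.3, 95.6 and 210.3 CPM in SF_CD libraries 1 to 5 and at 25.9, 58.5, 33.2, 55.7 and 37.9 CPM in SF_HFD libraries 1 to 5. SF_CD 5 and SF_CD 1, both shallow, were the highest, and SF_CD 2 and 3 lay inside the SF_HFD range. The means were 42.2 ± 14.3 CPM in SF_HFD against 104 ± 68.3 CPM in SF_CD (SD, n = 5 each), and the log2 fold change was -1.27 ± 0.45 (SE; edgeR adjusted p = 0.286, unadjusted p = 0.0115), and DESeq2 gave an adjusted p of 0.0895. In the 7 deeper libraries the log2 fold change was -0.52 ± 0.38 (SE; unadjusted p = 0.198), and without SF_CD 5 alone it was -0.86 (unadjusted p = 0.0532).

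Acsl3, a synthetase of the endoplasmic reticulum and lipid droplets at chr1:78657825-78707743 on the plus strand, had a value of the same sign. It was at 74.4, 37.9, 38.8, 69.4 and 64.3 CPM in SF_CD libraries 1 to 5 and at 24.2, 44.2, 35.1, 30.2 and 17.7 CPM in SF_HFD libraries 1 to 5. The 3 highest values were SF_CD 1, 4 and 5, and SF_HFD 2 alone of its group lay above the lowest SF_CD values. The fitted log2 difference was -0.88 ± 0.36 (SE; edgeR adjusted p = 0.355, unadjusted p = 0.0263) and -0.55 ± 0.30 (SE) in the 7 deeper libraries (unadjusted p = 0.101).

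Acsl5, the synthetase most typical of intestinal epithelium, at chr19:55251938-55297720 on the plus strand, had the opposite sign. It was at 22.5, 59.0, 63.9, 54.8 and 27.3 CPM in SF_CD libraries 1 to 5 and at 63.2, 133, 61.2, 69.8 and 125 CPM in SF_HFD libraries 1 to 5. SF_CD 1 and 5 were lowest and SF_HFD 2 and 5 highest, while the 6 remaining values lay between 54.8 and 69.8 CPM. The means were 90.5 ± 35.6 CPM in SF_HFD against 45.5 ± 19.1 CPM in SF_CD (SD, n = 5 each), and the log2 fold change was 0.94 ± 0.39 (SE; edgeR adjusted p = 0.357, unadjusted p = 0.0269), and 0.46 ± 0.31 (SE) in the 7 deeper libraries (unadjusted p = 0.163). Acsl1, a synthetase of fat-storing and oxidising tissues, was lower, at 5.84 to 15.8 CPM in SF_CD and 6.64 to 22.4 CPM in SF_HFD.

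A ratio within the family puts the 3 genes together and does not depend on the scaling between libraries. It was formed after the opposite signs of Acsl5 and of Acsl3 and Acsl4 had been seen, so separate groups are no further support. It has no test. Acsl5 made up 9.52%, 41.1%, 39.2%, 23.8% and 8.86% of the Acsl1, Acsl3, Acsl4, Acsl5 and Acsl6 counts in SF_CD libraries 1 to 5, and 51.3%, 51.6%, 44.1%, 43.0% and 66% in SF_HFD libraries 1 to 5. The groups did not overlap, also in the deeper libraries, though SF_CD 2 and SF_HFD 4 lay close, with exact 95% binomial (Clopper-Pearson) intervals of 38.4% to 43.8% and 40.9% to 45.1%. These intervals cover counting error only. The Acsl4 share was 27.8% to 68.4% in SF_CD against 20% to 34.3% in SF_HFD. Summed over the family, the level was 143 to 308 CPM in SF_CD and 123 to 259 CPM in SF_HFD, so the ranges of the total overlapped.

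**Figure D3:**
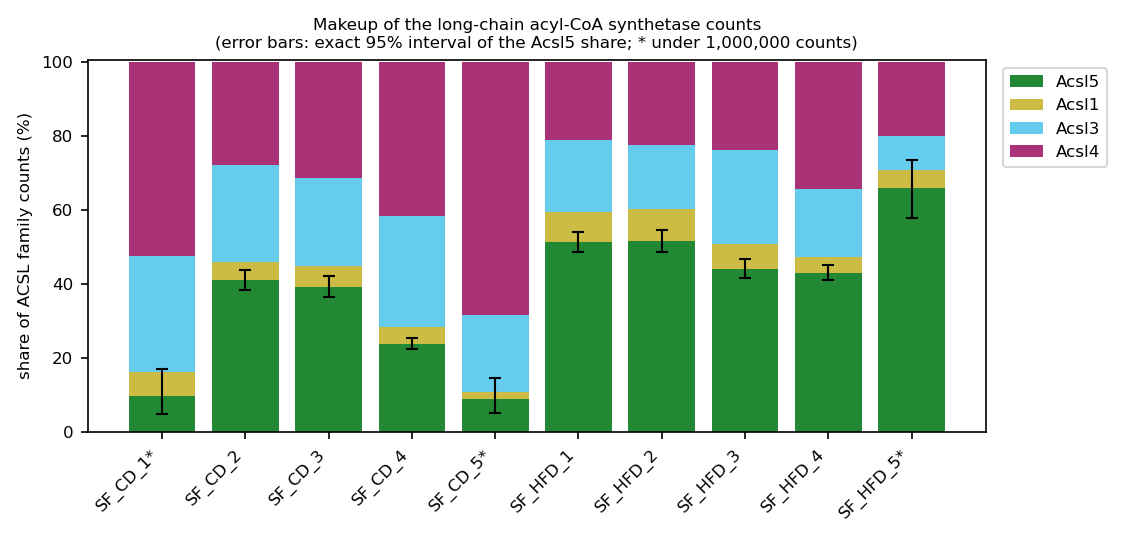
Share of each synthetase in the summed ACSL counts of every library, in percent, with exact 95% intervals for Acsl5. The Acsl5 share is 8.86% to 41.1% in SF_CD and 43.0% to 66% in SF_HFD. The share was formed after the values had been seen and has no test.

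Acot1 and Acot2, thioesterases that release fatty acids from acyl-CoA and are classical PPAR targets, were near the detection limit. Acot1 shares 16.7% of its 31-base words with Acot2, so the counting could split reads between them, and they were also summed. The sum was 2.57 ± 2.41 CPM in SF_CD and 0.683 ± 0.759 CPM in SF_HFD (SD, n = 5 each; exact two-sided permutation test, p = 0.143). Of the 92 Acot1 counts in SF_CD, 74 came from SF_CD 4. Without SF_CD 4 the difference went from -1.89 to -1.01 CPM (exact permutation p = 0.286), and without SF_CD 1 it was -2.55 CPM (exact permutation p = 0.0476). Over the 10 omissions of 1 library p ran from 0.0476 to 0.286, a value also reached without SF_CD 5 (-1.55 CPM). Crat, which makes short-chain acylcarnitines, had a log2 fold change of -0.14 ± 0.46 (SE).

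The carnitine shuttle, the entry step of mitochondrial oxidation, did not differ past the test in any of its 3 genes. Slc25a20, the carnitine-acylcarnitine carrier of the inner membrane, was at 20.3, 35.04, 31.9, 34.1 and 13.6 CPM in SF_CD libraries 1 to 5 and at 63.5, 9.68, 32.5, 23.5 and 8.84 CPM in SF_HFD libraries 1 to 5. SF_HFD held both the highest library and the 2 lowest, and the log2 fold change was 0.01 ± 0.50 (SE). Cpt1a, the outer-membrane transferase that sets the rate of entry and is a well-known PPAR target, was at 42.8, 11.5, 14.0, 20.9 and 35.05 CPM in SF_CD libraries 1 to 5 and at 10.6, 28.1, 10.1, 8.15 and 16.4 CPM in SF_HFD libraries 1 to 5. SF_CD 1 and 5 were highest, then SF_HFD 2, and the rest overlapped. Its log2 fold change was -0.68 ± 0.48 (SE; edgeR adjusted p = 0.610, unadjusted p = 0.172). It was -0.14 ± 0.45 (SE) in the 7 deeper libraries and -1.09 without SF_HFD 2 (unadjusted p = 0.0372). Cpt2, the inner-membrane transferase, spanned 2.25 to 18.2 CPM in SF_CD and 8.42 to 32.8 CPM in SF_HFD, and its highest value, SF_HFD 5, stands on 26 counts.

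All 9 mitochondrial beta-oxidation genes were expressed in both groups, and none passed the test. Their log2 fold changes ran from -0.26 (Hadha) to 0.68 (Acads), with SEs of 0.34 to 0.51 on the log2 scale, 4 positive and 5 negative and a median of -0.03. Echs1, the short-chain enoyl-CoA hydratase, was at 147, 215, 219.7, 129 and 75.9 CPM in SF_CD libraries 1 to 5 and at 128, 88.3, 141, 182 and 239 CPM in SF_HFD libraries 1 to 5. The groups overlapped, and the means were 156 ± 57.3 CPM in SF_HFD against 157 ± 60.7 CPM in SF_CD (SD, n = 5 each). Hadhb, the thiolase subunit of the trifunctional protein, was at 42.8, 120.3, 118, 75.5 and 79.8 CPM in SF_CD libraries 1 to 5 and at 96.7, 73.5, 100.2, 78.9 and 114 CPM in SF_HFD libraries 1 to 5. Again the groups overlapped, and the log2 fold change was 0.06 ± 0.34 (SE; edgeR adjusted p = 0.963). A share of 23.3% of the 31-base words of Hadhb occurs in other genes, mostly the pseudogene-like row Gm13910, so its level is uncertain. Of the acyl-CoA dehydrogenases, which take the first step for long to short chains, Acadvl spanned 17.5 to 96.3 CPM in SF_CD and 50.5 to 101.05 CPM in SF_HFD, Acadl 40.7 to 78.9 CPM in SF_CD and 41.6 to 91.9 CPM in SF_HFD and Acadm 27.1 to 68.7 CPM in SF_CD and 32.8 to 59.3 CPM in SF_HFD. Acads was the lowest of the 9, at 0 to 6.22 CPM in SF_CD and 5.30 to 8.84 CPM in SF_HFD.

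The electron transfer flavoprotein takes up the electrons of these dehydrogenases, and its 3 genes had log2 fold changes from -0.05 to 0.04. Etfb, the beta subunit, was at 76.6, 360.4, 273, 358 and 185 CPM in SF_CD libraries 1 to 5 and at 371, 206, 252, 172 and 260.2 CPM in SF_HFD libraries 1 to 5. Only SF_CD 1 stood apart, below all others, and the means were 252 ± 75.3 CPM in SF_HFD against 251 ± 121 CPM in SF_CD (SD, n = 5 each). Etfb shares 49.9% of its 31-base words with other genes, 47.3% with Gm45233, a gene annotation not among the rows of the table. Etfa, the alpha subunit, was at 54.1, 118, 123, 80.7 and 29.2 CPM in SF_CD libraries 1 to 5 and at 129, 43.1, 93.3, 69.2 and 63.2 CPM in SF_HFD libraries 1 to 5. SF_CD 5 was lowest and the rest of the 2 groups intermingled. Etfdh, the oxidoreductase that passes the electrons on, spanned 9.74 to 44.2 CPM in SF_CD and 13.8 to 42.0 CPM in SF_HFD.

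Etfb also had the highest level per transcript length. Over the 10 libraries it stood at 216 CPM per kilobase of merged exons, followed by Etfa at 43.7, Acaa2 at 33.3, Acadl at 31.7 and Acadvl at 25.1. On the same scale Pparg was at 8.63, Ppard at 1.09 and Ppara, the lowest of the 41, at 0.0883. Merged exons include rarely used ones, so the order is approximate.

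For the mitochondrial genes, SF_CD 1 and SF_CD 5 lay lowest against the deeper libraries of their group. For the 15 genes of the carnitine shuttle, beta-oxidation and the electron transfer flavoprotein, the median difference from the mean of the deeper SF_CD libraries was -1.21 in SF_CD 1 and -1.19 in SF_CD 5, on the scale log2(CPM + 2). Over all 11780 tested genes the same medians were -0.57 and -0.24. SF_CD 1 was under every deeper SF_CD library for 12 of the 15 genes, where 53.8% of all genes were, and SF_CD 5 for 11 of 15, where 46.5% were. The shallow SF_HFD 5 did not follow, with a median of 0.12 and 2 of 15 genes below every deeper SF_HFD library. Among the deeper libraries, SF_HFD 2 had a median of -0.50 and SF_CD 4 of -0.19, each with 10 of 15 genes below the other deeper libraries of its group, where 33.4% and 37.3% of all genes were. SF_HFD 4 had a median of -0.22, with 3 of 15 below. The counts behind these values were small, 1 to 65 per gene in SF_CD 1 and 0 to 95 in SF_CD 5. SF_HFD 2 holds 3648783 counts, the fewest of the 7 deeper libraries, and the part of depth was not tested. The ribosomal RNA share was 22.0% in SF_CD 1, 14.5% in SF_CD 5, 7.19% in SF_HFD 2, 2.97% in SF_HFD 5 and 2.40% in SF_CD 4. In SF_HFD 3 and SF_HFD 1 it was 5.03% and 3.73%, with medians of the 15 genes of 0.32 and 0.48. In SF_HFD 4, SF_CD 2 and SF_CD 3 it was 3.59%, 2.35% and 2.08%, with medians of -0.22, 0.21 and 0.12. The part of ribosomal RNA was not tested.

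**Figure D4:**
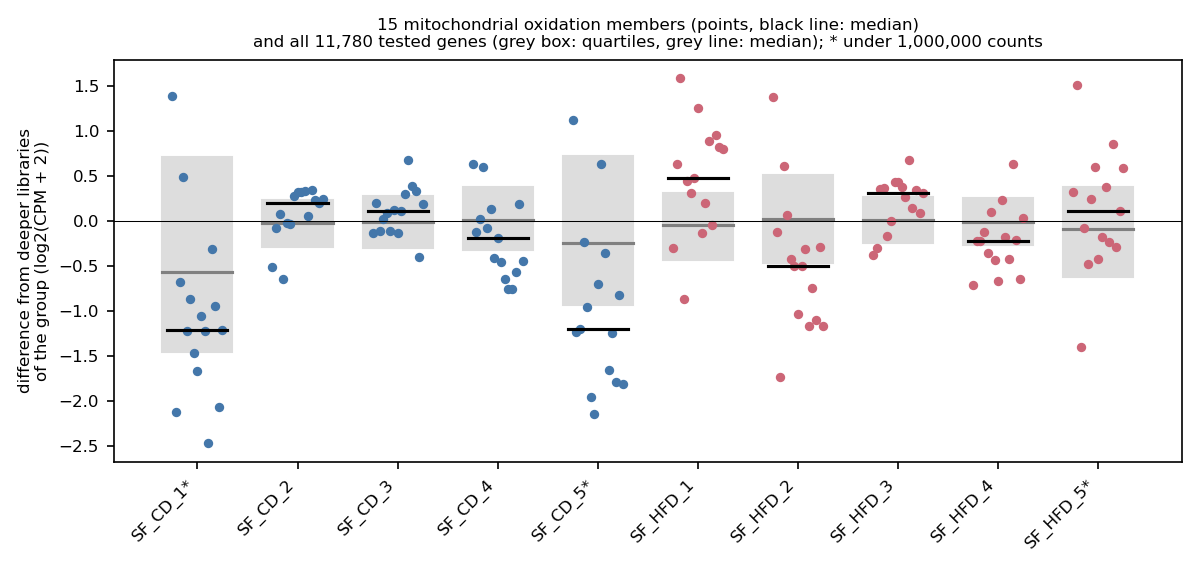
Difference of each library from the mean of the deeper libraries of its own group, in log2(CPM + 2), for 15 mitochondrial oxidation genes (points) and for all tested genes (grey quartile boxes). In SF_CD 1 and SF_CD 5 the black median line lies at -1.21 and -1.19, below the grey one.

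Without the 3 shallow libraries most of these genes had lower fitted levels in SF_HFD, and none was called. In the 7 deeper libraries 13 of the 15 genes had negative log2 fold changes, with a median of -0.32 beside 0.04 over all tested genes, whereas with 10 libraries 8 of 15 were negative with a median of -0.00. Of all members, 35 could be tested there, 12 positive and 23 negative, with a median of -0.25. Separate ranges were seen for 3 of these 35 (8.57%), Cpt2, Acadm and Decr2, all lower in SF_HFD, beside 18.7% of all 12653 genes tested there. At an unadjusted p under 0.05 there was 1 member, Decr2, beside 16.5% of all genes. The members' shares were thus no higher than the background. Acadm, the medium-chain dehydrogenase, ran from 63.0 to 68.6 CPM in the 3 deeper SF_CD libraries and from 38.6 to 60.0 CPM in the 4 deeper SF_HFD libraries, with a log2 fold change of -0.48 ± 0.23 (SE; unadjusted p = 0.0600). Cpt2 ran from 15.3 to 18.2 CPM and from 8.40 to 15.1 CPM, with -0.66 ± 0.30 (SE; unadjusted p = 0.0560), where the value over 10 libraries was 0.14.

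Among auxiliary and peroxisomal enzymes, Decr2 was the 1 member of the list whose groups did not overlap with all libraries. Decr2, the peroxisomal 2,4-dienoyl-CoA reductase that handles polyunsaturated chains, lies at chr17:26081208-26090337 on the minus strand. It was at 27.1, 26.6, 35.9, 30.3 and 68.1 CPM in SF_CD libraries 1 to 5 and at 20, 11.5, 23.0, 21.1 and 24.0 CPM in SF_HFD libraries 1 to 5. Every SF_HFD library lay below the lowest SF_CD library, and the narrow gap was between 24.0 and 26.6 CPM. The means were 19.9 ± 4.96 CPM in SF_HFD against 37.6 ± 17.5 CPM in SF_CD (SD, n = 5 each), and the log2 fold change was -0.90 ± 0.38 (SE; edgeR adjusted p = 0.371, unadjusted p = 0.0314). SF_CD 5 was highest, on 35 counts, and without it the log2 fold change was -0.61 (unadjusted p = 0.0914). In the 7 deeper libraries it was -0.70 ± 0.29 (SE; unadjusted p = 0.0354). Decr1, the mitochondrial enzyme with the same reaction, had a log2 fold change of 0.20 ± 0.56 (SE) and a wider spread, 0 to 35.04 CPM in SF_CD and 11.3 to 29.5 CPM in SF_HFD.

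Eci2, an enoyl-CoA isomerase of peroxisomes and mitochondria, was at 18.0, 32.2, 34.7, 87.5 and 33.1 CPM in SF_CD libraries 1 to 5 and at 32.6, 26.3, 37.5, 29.0 and 46.7 CPM in SF_HFD libraries 1 to 5. SF_CD 4 alone stood high, and the log2 fold change was -0.31 ± 0.40 (SE). Eci1, its mitochondrial relative, was at 22.5, 39.9, 48.8, 30.7 and 13.6 CPM in SF_CD libraries 1 to 5 and at 52.7, 37.1, 48.0, 32.98 and 31.6 CPM in SF_HFD libraries 1 to 5. SF_CD 5 and SF_CD 1 were the 2 lowest, and the value was 0.34 ± 0.37 (SE). Acaa1a, the peroxisomal thiolase, ranged over 11.3 to 23.4 CPM in SF_CD and 12.1 to 33.6 CPM in SF_HFD, and 18.1% of its 31-base words occur in other genes, mainly its near copy Acaa1b. Ehhadh, the peroxisomal bifunctional enzyme and a strong PPARα target in liver, gave 33 counts over the SF_CD libraries and 23 over the SF_HFD libraries.

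The remaining PPAR targets were either abundant, with log2 fold changes near 0, or nearly absent. Ucp2, an uncoupling protein of the inner mitochondrial membrane, was at 63.1, 144, 122, 195 and 152 CPM in SF_CD libraries 1 to 5 and at 112, 172, 112, 119 and 141 CPM in SF_HFD libraries 1 to 5. The groups overlapped, and the log2 fold change was -0.05 ± 0.33 (SE; edgeR adjusted p = 0.973). Plin2, the protein coat of lipid droplets, was at 65.4, 100.1, 104, 87.7 and 66.2 CPM in SF_CD libraries 1 to 5 and at 154, 33.6, 91.7, 62.0 and 78.3 CPM in SF_HFD libraries 1 to 5. SF_HFD held both the highest and the lowest library, and the log2 fold change was -0.02 ± 0.38 (SE). Pdk4, a kinase that restrains pyruvate dehydrogenase, gave 5 counts over SF_CD and 16 over SF_HFD. Angptl4, a secreted inhibitor of lipoprotein lipase, had 35 and 64 counts. Neither was tested over 10 libraries. Angptl4 had enough counts in the 7 deeper ones, with a log2 fold change of 0.51 ± 0.86 (SE).

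Other genes of these pathways, 58 in 6 lists, gave the same count of 0 called, with 37 tested. At an unadjusted p under 0.05 there were 3 (8.11%), beside the 11.6% of all genes, and the median log2 fold change was -0.06, with 15 positive and 22 negative. Ncor1, a corepressor that binds nuclear receptors, had a fitted log2 difference of -1.23 ± 0.49 (SE; edgeR adjusted p = 0.347, unadjusted p = 0.0237). Plin3, another lipid droplet protein, had -1.45 ± 0.53 (SE; edgeR adjusted p = 0.309, unadjusted p = 0.0150). Both were high in SF_CD 1 and 5 alone, for Ncor1 at 496 and 362 CPM against 75.3 to 117 CPM in the other 8, and in the 7 deeper libraries their log2 fold changes were 0.09 and 0.07. The most abundant gene of the peroxisomal list was Scp2, a sterol carrier and thiolase, at a mean of 203 CPM over the 10 libraries. In the other lists these were Hsd17b10 at 164 CPM (mitochondrial oxidation), Oxct1 at 102 CPM (ketone use) and Fabp5 at 57.4 CPM (other PPAR targets).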

How the data were processed

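Poly(A)-selected, strand-specific libraries were made from RNA, per the labels' protocols. The deposited table holds estimated counts per gene, made by the authors with Salmon 1.3.0 on mm10, per the submitters' processing notes, and the counts are not normalised. Columns were matched to samples by library name, and 1243 rows with an Ensembl ID but no symbol stayed in the fits. Coordinates, exon lengths and shared 31-base words came from GENCODE M21 (mm10), in which all 41 members were found. The deposited counts were whole numbers and were used as they stand.

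The main fit used the 10 serine-free libraries in edgeR 4.0.16 (R 4.3.3), with low counts filtered by filterByExpr, TMM scaling, robust quasi-likelihood tests and Benjamini-Hochberg adjustment over all tested genes. CPM are TMM-scaled. Alternatives were RLE scaling, no filter, DESeq2 1.42.0, a replicate block, each library left out, and the 7 libraries over 1000000 counts. Depth ran from 499774 to 12841275 counts, so low genes in the 3 shallow libraries rest on few counts. All members are named by role: values in every library are given for members with groups that do not overlap, with an unadjusted p under 0.05 or among the 2 most abundant of a role, and for Cd36. Members, lists and markers were chosen with earlier results of these data known. The values of 1 gene of the other pathway lists are not reported here.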

Additional observations from a re-analysis of the deposited data

Results flagged for a closer look

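In 10 of the 81 group-by-member sets of 5 values, 1 library stood apart from the other 4 by Dixon's test. Its rate of about 1 in 20 by chance holds for normal values of equal spread. These CPM come from libraries of unequal depth and are partly at 0, so the 10 cannot be set against that rate. Of the 10, 6 were in libraries under 1000000 counts. In SF_CD 1, Ppara was at 2.25 CPM (1 count, others 0), Fabp1 at 15.8 CPM (7 counts, others up to 1.32 CPM) and Acaa1a at 11.3 CPM (5 counts, others 22.0 to 23.4 CPM). In SF_CD 5, Decr2 was at 68.1 CPM (35 counts, others 26.6 to 35.9 CPM). In SF_HFD 5, Cpt2 was at 32.8 CPM (26 counts, others 8.42 to 14.9 CPM) and Pdk4 at 5.05 CPM (4 counts, others up to 0.555 CPM).

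The other 4 were in deeper libraries. Pparg was at 79.6 CPM in SF_HFD 1, on 880 counts, with the others at 22.7 to 27.4 CPM. Eci2 was at 87.5 CPM in SF_CD 4, on 1153 counts, with the others at 18.0 to 34.7 CPM. Acsl1 was at 22.4 CPM in SF_HFD 2, on 97 counts, with the others at 6.64 to 9.87 CPM. Ppara was at 0.691 CPM in SF_HFD 2, on 3 counts, with the others at most at 0.185 CPM.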

How the results depend on the processing

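The number of genes called over the whole table, 38, was 78 with no filter, 382 with DESeq2 (86 higher and 296 lower, against 18 and 20), 22 with the replicate block and 16 to 88 when 1 library was left out (lowest without SF_HFD 4, highest without SF_CD 2). Genes whose groups did not overlap numbered 430, but 2368 in the 7 deeper libraries, where fewer libraries enter, and 519 to 783 when 1 library was left out. RLE scaling moved the median log2 fold change of all tested genes from 0.02 to -0.03. The count of members called was 0 throughout, except for 1 with no filter, Cd36. The difference in summed Acot1 and Acot2, -1.89 CPM, ran from -2.55 to -1.01 CPM when 1 library was left out. Replicate numbers did not pair the libraries: correlations of deviations between same-numbered libraries were -0.21 to 0.14 over 5 pairs, and 1 of 5 SF_CD libraries correlated best with its own number. With the replicate block, Pparg had a log2 fold change of 1.53 (unadjusted p = 0.0350).

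Of the 33 tested members, 15 kept their sign under all 15 alternatives and 18 did not, and none of these 18 had a log2 fold change larger than its SE with all libraries. The lowest adjusted p of a tested member over the alternatives was 0.0895. An unadjusted p under 0.05 was found in 13 of the 15 for Slc27a4 and Acsl4, 11 for Acsl5, 9 for Acsl3 and 8 for Decr2. The alternatives refit the same libraries, so these counts are no independent support. Signs opposite to those with all libraries were found with the replicate block for Crat (0.040), Slc25a20 (-0.30), Acaa2 (0.072), Etfa (0.020), Etfb (0.093) and Ucp2 (0.021), with RLE scaling for Slc25a20 (-0.031), with DESeq2 for Slc25a20 (-0.030) and Hadhb (-0.0023), with no filter for Hadh (0.0062), Echs1 (0.0028), Etfb (0.027) and Plin2 (0.025), and in the 7 deeper libraries for Cpt2 (-0.66), Slc25a20 (-0.052), Acadvl (-0.32), Hadhb (-0.26), Decr1 (-0.37) and Etfdh (-0.45). The cause was not tested. Leaving out 1 library gave log2 fold changes on both sides of 0 for 17 members: Fabp2 -0.88 to 0.84, Acsl1 -0.11 to 0.45, Crat -0.28 to 0.22, Cpt2 -0.29 to 0.34, Slc25a20 -0.54 to 0.23, Hadh -0.38 to 0.15, Hadhb -0.099 to 0.21, Acaa2 -0.31 to 0.29, Echs1 -0.23 to 0.13, Eci2 -0.48 to 0.17, Decr1 -0.054 to 0.59, Acaa1a -0.15 to 0.23, Etfa -0.29 to 0.15, Etfb -0.23 to 0.17, Etfdh -0.16 to 0.23, Plin2 -0.36 to 0.18 and Ucp2 -0.22 to 0.11. Depth limits the 8 untested members, and SEs of 0.33 to 0.77 on the log2 scale limit what could be seen for the others.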
